A study of Sus scrofa with 16 samples.

Results

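The hippocampal transcriptome of pigs with necrotizing enterocolitis (NEC) restricted to the colon (Co-NEC) was compared with that of pigs without NEC (No NEC). The 10 samples were 5 Co-NEC and 5 No NEC pigs out of 16 sequenced, and the members of the comparison were all 13590 entries of the deposited expression table that averaged 0.5 FPKM or more across the series. FPKM is a level of expression scaled for transcript length and for the number of mapped fragments. All pigs were delivered preterm by cesarean section, received parenteral nutrition in decreasing amounts together with human donor milk, and were examined after about a week. NEC arose spontaneously, so the groups were set by the lesions found and not by a treatment. Co-NEC pigs had lesions scored as NEC in the colon only, whereas No NEC pigs had none in any intestinal region. Each group held 2 female and 3 male pigs, and in each group 2 pig numbers ended in 14 and 3 in 15. The left hippocampus was sampled as whole tissue, so that fewer cells of a type and less RNA per cell cannot be told apart.

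The hippocampus serves learning and memory. It is built of excitatory pyramidal and granule neurons, inhibitory interneurons, astrocytes, oligodendrocytes, microglia and vessels, and in newborn pigs myelination and the addition of granule neurons are under way. Intestinal inflammation is known to reach the brain through circulating cytokines, the vagus nerve and the vasculature, with microglia, endothelium and astrocytes as the usual responders.

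The samples had markers of neurons and astrocytes. SLC17A7, the vesicular glutamate transporter of excitatory neurons, averaged 562 ± 51.3 FPKM in the Co-NEC and 610 ± 45.2 FPKM in the No NEC group, and GAD1, the enzyme that makes GABA, 89.8 ± 3.71 and 94.3 ± 6.49 FPKM (mean ± SD of 5 pigs, here and for all group means of Co-NEC and No NEC). GFAP, the intermediate filament of astrocytes, was at 581 ± 37.4 and 590 ± 66.2 FPKM. No NEC pig 230-15 stood apart. Its FPKM values summed to 864931, against 544629 to 637126 in the other 9 pigs, its median correlation with the other pigs across entries was 0.903 against 0.952 to 0.963, and 186 of its tested entries were listed at 0 against 108 to 128. Its mean level was above that of every other pig in 13 of the 37 gene lists described here and below every other pig in 7. What sets this pig apart was not tested. Many results are given with and without it, and those given only with it may depend on it too. The table holds no read counts, so the depth behind each value is unknown.

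Only COX1, the mitochondrially encoded core subunit of cytochrome c oxidase, passed an adjusted p under 0.2, which is 1 of 13590 entries or 0.00736% (limma, Benjamini-Hochberg adjustment). The study set its own threshold of 0.2 on q values from Cuffdiff, a different test. It called more genes for this comparison, TF and HBB among them, and COX1 was not one of them. COX1 was listed at 15986, 12599, 14981, 9929 and 13477 FPKM in Co-NEC pigs 225-15, 545-14, 552-14, 255-15 and 231-15, and at 0 in all 5 No NEC and all 6 Si-NEC pigs, those with NEC in the small intestine. Genes transcribed from the same mitochondrial DNA gave overlapping values in the 2 groups. COX2 ranged from 10782 to 20359 FPKM in Co-NEC and from 11992 to 35437 in No NEC pigs. CYTB ranged from 2738 to 6159 and from 3477 to 9171. ND3 ranged from 12889 to 23605 in Co-NEC and from 16259 to 42987 in No NEC pigs, with the highest value in pig 230-15. An exact 0 in such a table can be a failed estimate. Among 4010 entries with a mean above 20 FPKM in the 10 pigs, 39 held a 0 and 17 were at 0 in 5 or more of them. No fold change is therefore given for COX1. Below 0.5 FPKM, outside the entries tested, GLYATL2 was listed at 0 in all Co-NEC pigs, whereas the No NEC pigs had 0.120 to 0.219 FPKM. The unnamed entry ENSSSCG00000005210, also below that level, was listed at 0 in all No NEC pigs, whereas its Co-NEC values lay between 0.112 and 0.486 FPKM.

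Outside COX1 the smallest adjusted p was 0.812 (limma), so that no nuclear gene was called. An unadjusted p under 0.05 was reached by 288 entries with higher levels in Co-NEC pigs, 2.12% of those tested, and by 179 with lower levels, 1.32%, together 3.44%. With the pigs put on a common scale by median ratios these counts were 254 and 276, and they ran from 134 to 557 and from 112 to 461 when 1 pig was left out. The 3.44% is below the share of about 0.05 that such a threshold passes when no entry differs. The differences were small. The median log2 fold change was 0.01 and the median size of the log2 fold change was 0.15, and 67 entries were higher and 63 lower by more than 1 on the log2 scale, together 0.957% of the entries. The precision allowed large changes to be bounded for most genes. The 95% interval of the log2 fold change had a median half-width of 0.38, it lay within 1 of no change for 12033 entries (88.5%), and it lay within 0.5 for 6112 (45.0%). At log2(FPKM + 0.5), on which all fold changes here are given, the changes of genes with low levels are understated.

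The direction of the small differences varied with the level of expression. In the 2718 entries with the highest means, from 30.5 FPKM up, 35.6% had a higher mean in Co-NEC pigs and the median log2 fold change was -0.08. In the next lower quintile, from 13.4 to 30.5 FPKM, 50.3% were higher and the median was 0.00. In the second lowest quintile, from 2.70 to 6.46 FPKM, 61.4% were higher and the median was 0.06. The share in the highest quintile was 47.4% without pig 230-15, with a median of -0.01, and the second lowest quintile kept a share of 62.3%. Between the 2 female pigs of each group the medians of all quintiles lay between 0.03 and 0.07, and between the 3 male pigs of each group, which include pig 230-15, they ran from -0.15 in the highest quintile to 0.04 in the second lowest. Over all 13590 entries, 52% were higher and 48% lower in Co-NEC pigs, and 57.0% were higher without pig 230-15.

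**Figure D1:**
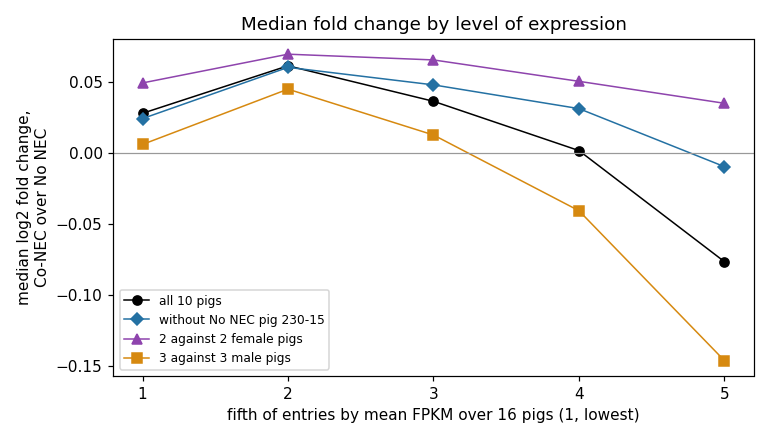
Median log2 fold change between Co-NEC and No NEC pigs (y axis) in quintiles of 2718 entries each, ordered by mean FPKM over 16 pigs (x axis, 1 is the lowest), for all 10 pigs, without No NEC pig 230-15, and within each sex. The median of the highest quintile was -0.08 with all pigs and -0.01 without pig 230-15.

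The values of the 2 groups did not overlap in 32 entries with higher levels in Co-NEC pigs (0.235% of those tested) and in 31 with lower levels (0.228%), and the latter were 50 on the common scale by median ratios. Of these, 16 and 19 had a gene name, a single entry and a mean of at least 1 FPKM, and the 12 of each with the smallest limma p are described here in groups by known function. Their adjusted p was 0.812 throughout, COX1 aside (limma), and since they were chosen for their separation the lack of overlap is a description. In the following, values of Co-NEC pigs are in the order 225-15, 545-14, 552-14, 255-15 and 231-15, and values of No NEC pigs in the order 540-14, 228-15, 230-15, 253-15 and 550-14.

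Among the genes with higher levels in Co-NEC pigs, 4 have products that act on transcription or chromatin. KLF7, a Krüppel-like transcription factor needed for axon growth, was at 8.69, 10.6, 10.18, 9.29 and 9.83 FPKM in Co-NEC and 8.52, 8.55, 6.82, 7.32 and 7.41 in No NEC pigs. The lowest Co-NEC pig was thus close to the 2 highest No NEC pigs, and the log2 fold change was 0.32 (95% interval 0.09 to 0.54). ZNF354C, a zinc finger protein, was at 4.72, 4.39, 4.62, 4.01 and 3.89 FPKM in Co-NEC and 3.50, 3.60, 1.43, 3.28 and 2.74 in No NEC pigs, giving a log2 fold change of 0.55 that was 0.35 without pig 230-15, the lowest pig. TAF3, a subunit of the general transcription factor TFIID, averaged 6.33 ± 0.658 and 5.23 ± 0.312 FPKM, with Co-NEC pig 545-14 highest at 7.49. BRWD3, a bromodomain protein, averaged 2.72 ± 0.157 and 2.18 ± 0.239 FPKM.

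Another 3 genes encode proteins of membrane traffic. BMP2K, a kinase of the family that acts on clathrin-coated vesicles, had the smallest p among the nuclear genes with higher levels. It was at 7.02, 6.41, 7.07, 5.89 and 6.60 FPKM in Co-NEC and 5.53, 5.63, 2.95, 3.34 and 3.91 in No NEC pigs. Of the No NEC pigs, 2 lay near the Co-NEC range and 3 well below it, and the log2 fold change was 0.61 (95% interval 0.23 to 0.99), or 0.50 without pig 230-15. GOPC, a Golgi-associated scaffold that sorts membrane proteins, was at 13.1, 14.2, 13.02, 12.9 and 14.8 FPKM in Co-NEC and 11.8, 12.5, 10.19, 9.74 and 10.1996 in No NEC pigs, which gave a log2 difference of 0.31 (95% interval 0.09 to 0.53). TBC1D19, of the family of Rab GTPase-activating proteins, averaged 11.1 ± 1.06 and 8.64 ± 0.821 FPKM.

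The remaining genes of this direction have separate roles. ELOVL2 elongates polyunsaturated fatty acids on the way to docosahexaenoic acid, a main fatty acid of brain membranes. It was at 43.7, 44.8, 49.5, 48.1 and 44.0 FPKM in Co-NEC and 42.3, 42.5, 27.2, 36.1 and 36.2 in No NEC pigs. Its log2 fold change was 0.33 (95% interval 0.06 to 0.61) and 0.23 without pig 230-15, and the Si-NEC pigs averaged 35.9 ± 3.04 FPKM (SD, 6 pigs). CRB1, a protein of apical cell polarity, averaged 3.67 ± 0.400 and 2.69 ± 0.570 FPKM. Its log2 fold change was 0.40, or 0.28 without pig 230-15. ZRANB1, a deubiquitinating enzyme, averaged 15.1 ± 0.957 and 12.8 ± 0.671 FPKM. C17orf78 had the largest log2 fold change of the group, 1.02 (95% interval 0.12 to 1.93), at 2.71, 4.36, 3.64, 6.33 and 2.78 FPKM in Co-NEC and 2.56, 2.67, 0.176, 1.79 and 2.29 in No NEC pigs. Its log2 fold change was 0.61 without pig 230-15, in which the gene was almost absent.

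**Figure D2:**
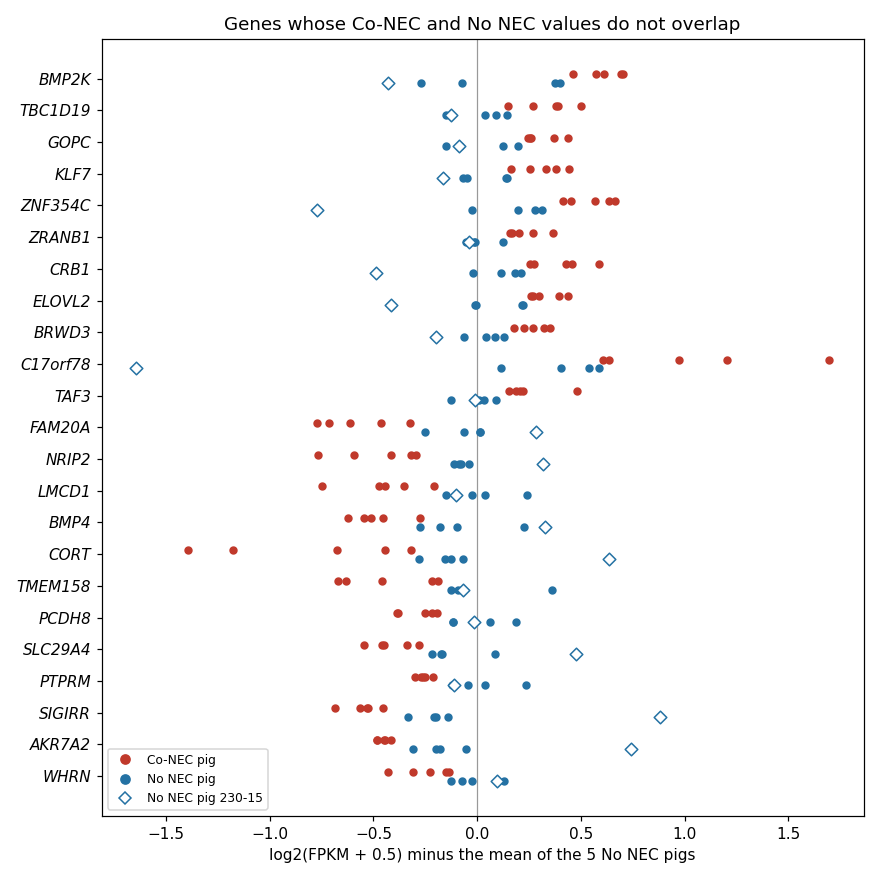
Level of each gene named by lack of overlap, COX1 left out, as log2(FPKM + 0.5) minus the mean of the 5 No NEC pigs (x axis), in the 5 Co-NEC and 5 No NEC pigs, 1 point per pig. Pig 230-15 was the lowest of the 10 pigs for 7 of the 11 genes with higher levels in Co-NEC and the highest for 7 of the 12 with lower levels.

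Of the genes with lower levels in Co-NEC pigs, 3 encode secreted or secretory pathway proteins. BMP4, a ligand of the bone morphogenetic protein pathway that regulates neural stem cells in the dentate gyrus, was at 3.65, 3.48, 3.39, 4.18 and 3.18 FPKM in Co-NEC and 4.80, 6.14, 6.63, 4.19 and 4.50 in No NEC pigs. Co-NEC pig 255-15 and No NEC pig 253-15 were level with each other, and the log2 fold change was -0.48 (95% interval -0.79 to -0.17), or -0.40 without pig 230-15. CORT, or cortistatin, is a neuropeptide of inhibitory interneurons related to somatostatin. It was at 8.37, 7.11, 14.2, 15.6 and 12.03 FPKM in Co-NEC and 17.5, 18.6, 30.6, 17.8 and 15.97 in No NEC pigs. This amounted to a log2 fold change of -0.80 (95% interval -1.33 to -0.27), or of -0.64 without pig 230-15, while the Si-NEC pigs averaged 20.7 ± 9.78 FPKM (SD, 6 pigs). FAM20A, a pseudokinase of the secretory pathway, was at 0.969, 0.816, 1.13, 1.30 and 0.869 FPKM in Co-NEC and 1.77, 1.39, 2.23, 1.65 and 1.77 in No NEC pigs. It had the smallest p of the genes with lower levels, with a log2 fold change of -0.58 (95% interval -0.89 to -0.27).

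Proteins of the cell surface made up 5 of the genes with lower levels. SIGIRR, an inhibitory receptor of interleukin-1 and Toll-like receptor signalling, was at 2.70, 2.54, 2.22, 2.46 and 2.53 FPKM in Co-NEC and 3.47, 3.32, 7.59, 2.98 and 3.29 in No NEC pigs. Its log2 fold change of -0.55 became -0.33 when pig 230-15, far above the others, was left out. PCDH8, a protocadherin induced by neuronal activity, was at 28.9, 29.1, 31.9, 33.2 and 32.6 FPKM in Co-NEC and 35.0, 35.0, 37.6, 43.3 and 39.7 in No NEC pigs, and its log2 fold change was -0.29 with and without pig 230-15. PTPRM, an adhesive receptor tyrosine phosphatase, was at 12.98, 12.9, 13.4, 12.5 and 12.8 FPKM in Co-NEC and 18.4, 14.3, 14.4, 15.1 and 16.002 in No NEC pigs. The Co-NEC pigs were within 1 FPKM of each other, and the log2 fold change was -0.26 (95% interval -0.47 to -0.05). TMEM158, a membrane protein induced by Ras signalling, averaged 57.3 ± 9.07 FPKM in Co-NEC and 77.5 ± 12.04 in No NEC pigs, with No NEC pig 540-14 highest at 98.9. SLC29A4, the plasma membrane monoamine transporter, averaged 20.7 ± 1.55 and 28.3 ± 6.34 FPKM. Its log2 fold change was -0.42, or -0.30 without pig 230-15.

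The last 4 of these genes were AKR7A2, an aldehyde reductase that makes gamma-hydroxybutyrate from succinic semialdehyde, NRIP2, a nuclear receptor interacting protein, LMCD1, a LIM domain transcriptional cofactor, and WHRN, a PDZ scaffold of sensory cells. AKR7A2 averaged 12.5 ± 0.254 and 18.0 ± 6.36 FPKM in the 2 groups, with a log2 fold change of -0.46 and of -0.27 without pig 230-15, which was at 29.2. NRIP2 averaged 2.90 ± 0.455 and 4.23 ± 0.638 FPKM, LMCD1 2.84 ± 0.445 and 4.03 ± 0.496, and WHRN 8.19 ± 0.721 and 9.84 ± 0.783. The log2 fold changes of these 3 were -0.48, -0.44 and -0.25, and -0.40, -0.47 and -0.23 without pig 230-15.

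Gene lists of cell types, pathways and stress responses were then read as counts and medians, beside the median of 0.01 and the 52% of entries with higher means over the whole table. Only members found by symbol and averaging 0.5 FPKM or more were tested, and all counts are of these. They were 23 of 77 ribosomal, 39 of 91 nuclear respiratory, 7 of 22 erythroid, 6 of 20 neutrophil and 3 of 18 lymphocyte genes. Other lists were more complete, such as inhibitory neurons with 14 of 18. The 37 lists held 491 distinct genes that were tested, of which 5 had higher and 5 lower levels at an unadjusted p under 0.05, or 1.02% in each direction against 2.12% and 1.32% of all entries. In 27 lists no member reached that level. The medians of 18 lists changed sign when a single pig was left out, and those of 19 did not. Groups did not overlap for 2 of the 491 genes, 1 higher and 1 lower, against 0.235% and 0.228% of all entries. They were COX1 and UROS, an enzyme of heme synthesis, which was chosen after its values were seen and had a log2 fold change of -0.25.

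**Figure D3:**
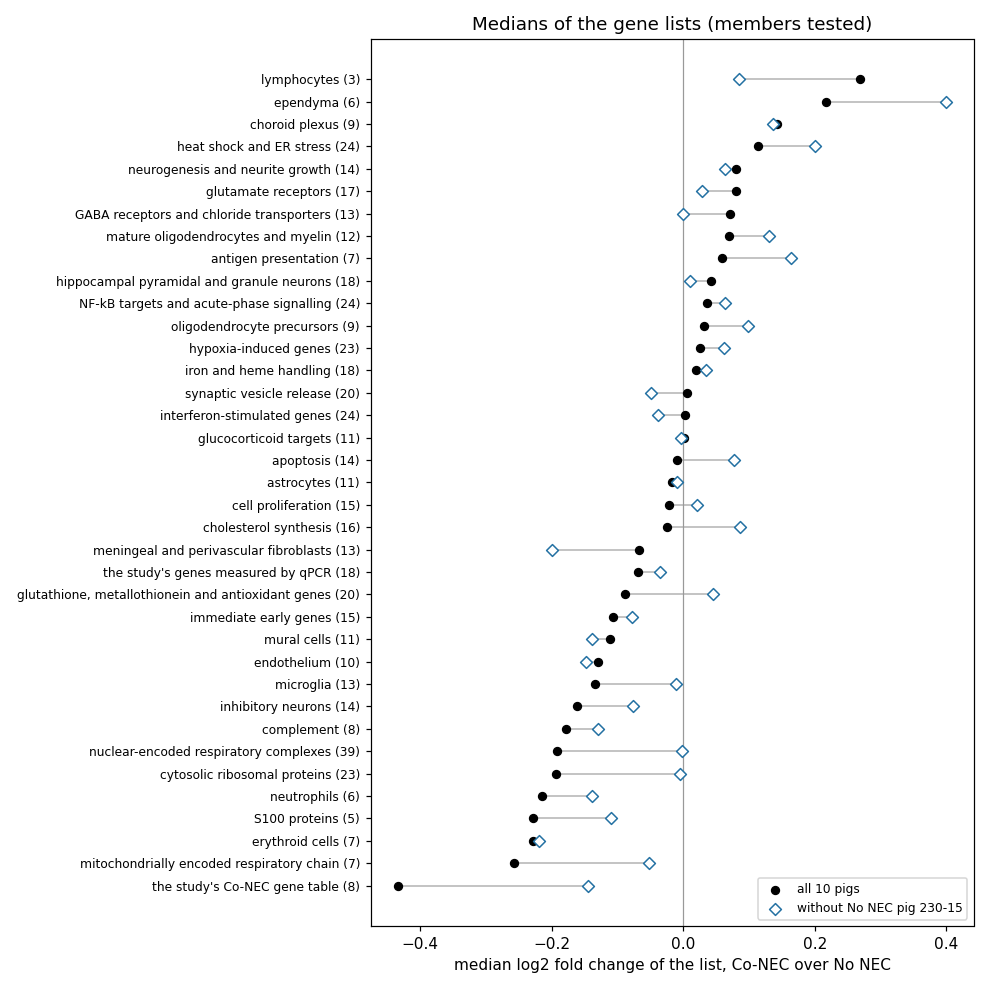
Median log2 fold change between Co-NEC and No NEC pigs (x axis) of each gene list (y axis, number of members tested in parentheses), with all 10 pigs (filled) and without No NEC pig 230-15 (open). The nuclear respiratory and ribosomal lists went from -0.19 with all pigs to between -0.01 and 0.00 without that pig, and the heat shock list from 0.11 to 0.20.

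Inflammatory genes showed no common direction. Of 24 interferon-stimulated genes, which are induced by viral and cytokine signals, 13 had higher and 11 lower means in Co-NEC pigs, with a median log2 fold change of 0.00, which ran from -0.10 to 0.12 when 1 pig was left out. EIF2AK2, a sensor of double-stranded RNA, had a log2 fold change of 0.55 ± 0.32 (SE), or 0.24 without pig 230-15. The mean level of the interferon list ran from 1.47 to 2.201 on the log2 scale in Co-NEC and from 1.496 to 2.38 in No NEC pigs. Of 24 NF-kB targets and acute-phase genes, 14 were higher and the median was 0.04, from -0.03 to 0.09 with 1 pig left out. Neither list had a member with an unadjusted p under 0.05.

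The myeloid and complement lists had more lower than higher members. Of 13 microglial genes 5 were higher and the median was -0.13, or -0.01 without pig 230-15. CD14, the lipopolysaccharide co-receptor, was at 7.16, 5.91, 7.83, 9.44 and 8.23 FPKM in Co-NEC and 10.5, 11.3, 12.6, 9.52 and 8.77 in No NEC pigs. All but 1 Co-NEC pig lay below the whole No NEC group, the log2 fold change was -0.43 (95% interval -0.74 to -0.12), and the adjusted p was 0.812 (limma). TYROBP, an adaptor of microglial receptors, had a log2 fold change of -0.45 ± 0.27 (SE), or -0.18 without pig 230-15, the highest at 61.1 FPKM. Of 8 complement genes 1 was higher, C3, the central component of the cascade, at 3.93, 6.00, 5.99, 6.62 and 6.75 FPKM in Co-NEC and 5.86, 4.87, 3.45, 3.57 and 4.17 in No NEC pigs. CFD, the protease that starts the alternative pathway, had the opposite sign, with a log2 fold change of -0.80 (95% interval -1.54 to -0.07) and of -0.56 without pig 230-15. Of 6 neutrophil genes 1 was higher with a median of -0.21, or 2 with a median of -0.14 without pig 230-15. NCF4, a subunit of the phagocyte oxidase, had a log2 fold change of -0.53, or -0.39 without that pig. S100A8, abundant in neutrophils, was at 0.734 to 2.31 FPKM in Co-NEC and 0.764 to 3.08 in No NEC pigs, against 2.21 to 25.0 in Si-NEC pigs. Of 7 genes of antigen presentation 4 were higher and the median was 0.06, or -0.05 without No NEC pig 253-15 and 0.16 without pig 230-15. Of 3 lymphocyte genes 2 were higher, with a median of 0.27 that was -0.13 without Co-NEC pig 225-15 and 0.08 without pig 230-15.

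**Figure D4:**
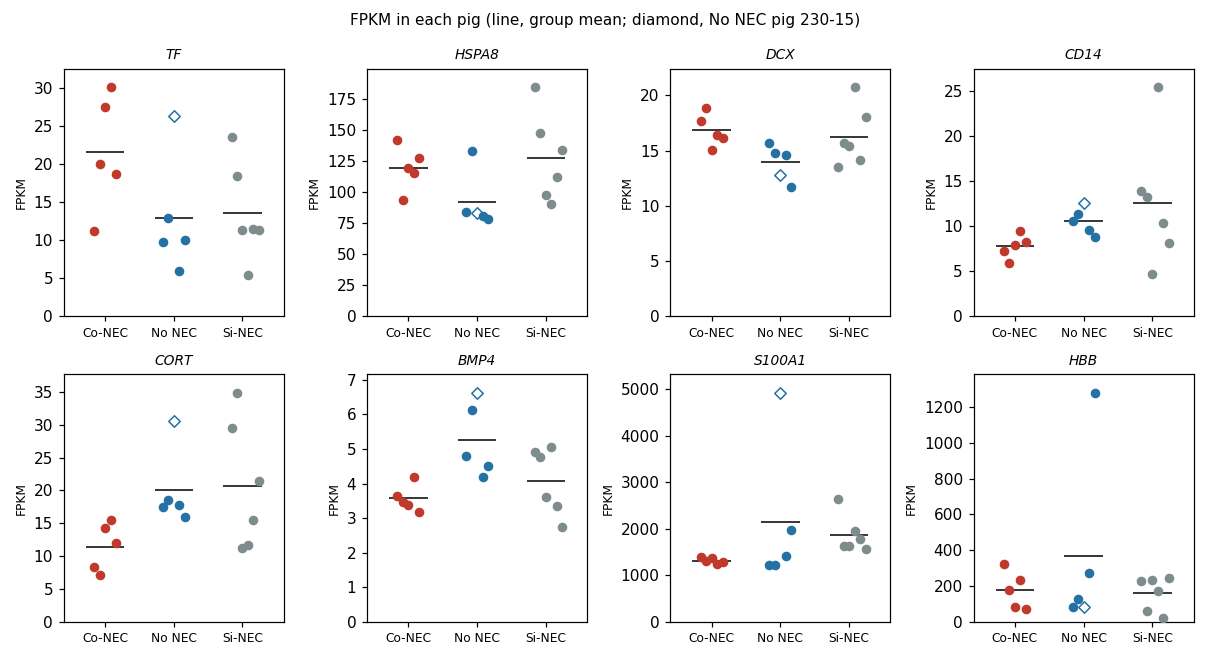
FPKM (y axis) of 8 genes named in the text in each pig of the Co-NEC, No NEC and Si-NEC groups, 1 point per pig with the group mean as a line. The Co-NEC and No NEC points of CORT and BMP4 do not overlap, those of the other genes do, and S100A1 and HBB each have 1 No NEC pig far above the rest, at 4924 and 1281 FPKM.

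Chaperones and endoplasmic reticulum stress genes were the list with the most uniform tilt toward higher means. Of 24 members, 21 were higher in Co-NEC pigs and the median log2 fold change was 0.11, and without pig 230-15 these values were 23 and 0.20. HSPA8, the constitutive cytosolic chaperone of the HSP70 family, was at 142, 93.4, 119, 115 and 128 FPKM in Co-NEC and 83.7, 133, 83.1, 81.1 and 78.7 in No NEC pigs. All Co-NEC pigs were above 4 of the No NEC pigs, but No NEC pig 228-15 was within their range, and the log2 fold change was 0.39 (95% interval 0.03 to 0.76, limma adjusted p = 0.812). HSPH1, a co-chaperone of HSP70, was at 79.7 to 122 FPKM in Co-NEC pigs and at 55.3 to 71.9 in the No NEC pigs other than 228-15, which was at 120. HSPA4L, of the same family, had a log2 fold change of 0.53 ± 0.27 (SE), or 0.32 without pig 230-15. The mean level of the list was 5.97, 5.53, 5.65, 5.69 and 5.93 on the log2 scale in Co-NEC and 5.49, 5.97, 5.77, 5.37 and 5.39 in No NEC pigs, so the groups overlapped, with pig 228-15 at the height of the highest Co-NEC pig. The Si-NEC pigs had an HSPA8 mean of 128 ± 35.3 FPKM (SD, 6 pigs).

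Ribosomal and respiratory genes tilted the other way, and this rested on 1 pig. All 23 cytosolic ribosomal protein genes tested, of 77 in the list, had lower means in Co-NEC pigs with a median log2 fold change of -0.19. Without pig 230-15, 11 of 23 were higher and the median was -0.01. The mean level of the list was 9.29 on the log2 scale in pig 230-15 and 8.14 to 8.38 in the other 9 pigs. The nuclear-encoded respiratory complexes gave 2 of 39 higher members and a median of -0.19, which became 19 of 39 and 0.00. Their mean level was 8.005 in pig 230-15 and 6.93 to 7.13 in the other 9 pigs. RPLP2, a protein of the ribosomal stalk, was at 1181 FPKM in that pig and at no more than 541 in the other No NEC pigs, and NDUFB7, a subunit of complex I, was at 920 and at no more than 471. Of 20 antioxidant genes 4 were higher, with a median of -0.09, and 15 were higher without pig 230-15, with a median of 0.05.

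**Figure D5:**
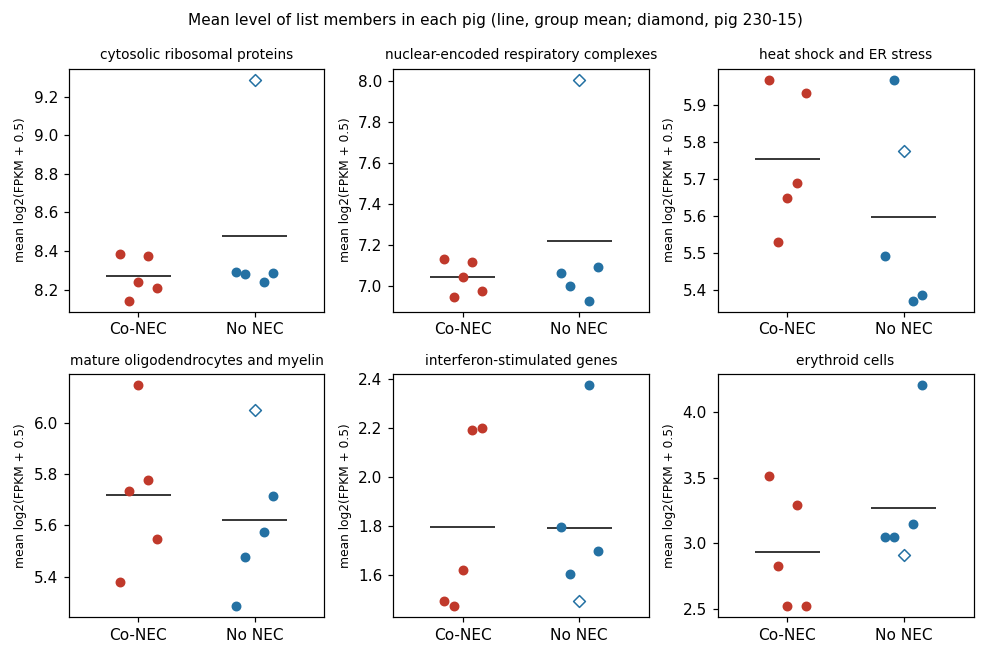
Mean log2(FPKM + 0.5) over the members of 6 gene lists (y axis) in each Co-NEC and No NEC pig, with group means as lines and No NEC pig 230-15 as a diamond. In the ribosomal and respiratory panels pig 230-15 lies at 9.29 and 8.005, above the other 9 pigs.

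Responses to low oxygen and stress hormones were balanced. Of 23 hypoxia-induced genes 14 had higher means and the median was 0.03, or -0.06 without No NEC pig 253-15 and 0.06 without pig 230-15. PDK1, a kinase that keeps pyruvate from the mitochondria, was at 10.5, 9.92, 12.8, 10.7 and 8.45 FPKM in Co-NEC and 7.29, 10.8, 5.09, 6.56 and 8.92 in No NEC pigs. Its log2 fold change was 0.44 (95% interval 0.03 to 0.85), or 0.31 without pig 230-15. PFKL, the liver type of phosphofructokinase, had the opposite sign, with a log2 fold change of -0.25. Of 11 glucocorticoid targets 6 were higher and the median was 0.00. PDK4, a related kinase under glucocorticoid control, was at 7.95 to 16.9 FPKM in Co-NEC and 6.06 to 12.3 in No NEC pigs. Of 16 cholesterol synthesis genes 8 were higher with a median of -0.02, of 14 apoptosis genes 7 were higher with a median of -0.01, and of 15 proliferation genes 5 were higher with a median of -0.02. Without pig 230-15 these lists had 9, 9 and 9 higher members and medians of 0.09, 0.08 and 0.02.

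Within the list of hippocampal neurons, 2 of 18 genes had higher levels at an unadjusted p under 0.05 (limma), as did 2.12% of all entries. DCX, the microtubule protein of migrating and newborn neurons, was at 17.7, 18.8, 15.0, 16.4 and 16.1 FPKM in Co-NEC and 15.7, 14.8, 12.8, 14.6 and 11.7 in No NEC pigs. All but 1 Co-NEC pig lay above the whole No NEC group, and the log2 fold change was 0.27 (95% interval 0.03 to 0.51, limma adjusted p = 0.812). MAN1A1, a Golgi mannosidase listed as a marker of hippocampal neurons, averaged 13.9 ± 2.27 FPKM in Co-NEC and 10.5 ± 2.01 in No NEC pigs. Their list as a whole had 10 of 18 members higher and a median of 0.04, and its mean level spanned only 4.74 to 4.91 on the log2 scale over all 10 pigs. Of 14 genes of neurogenesis and neurite growth, DCX included, 10 were higher with a median of 0.08. The neurotrophin receptors NTRK2 and NGFR had log2 fold changes of 0.45 each, which were 0.21 and 0.26 without pig 230-15. Both 95% intervals included no change, at -0.11 to 1.02 for NTRK2 and -0.05 to 0.95 for NGFR. NGFR was near the lower limit of the entries tested, with means of 0.887 FPKM in Co-NEC and 0.546 in No NEC pigs. Of 14 inhibitory neuron genes 3 were higher with a median of -0.16, or -0.08 without pig 230-15. VIP, an interneuron peptide, had a log2 fold change of -0.79 ± 0.49 (SE), or -0.41 without No NEC pig 253-15, with 1 pig far above the others in each group, at 24.5 FPKM in Co-NEC and 44.1 in No NEC.

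Synaptic genes were nearly level as groups. Of 17 glutamate receptor genes 12 had higher means with a median of 0.08, of 13 genes of GABA receptors and chloride transport 9 were higher with a median of 0.07, and of 20 genes of synaptic vesicle release 10 were higher with a median of 0.01. Without pig 230-15 the higher members numbered 9, 7 and 9 and the medians were 0.03, 0.00 and -0.05. The glutamate receptor list held 2 genes with lower levels at an unadjusted p under 0.05 (limma), a level that 1.32% of all entries reached in that direction. GRID1, the delta-1 subunit that links pre- and postsynaptic sites, was at 13.4, 15.5, 14.3, 13.5 and 13.4 FPKM in Co-NEC and 18.9, 14.0, 27.3, 15.4 and 20.5 in No NEC pigs, giving a log2 fold change of -0.40 and of -0.27 without pig 230-15. GRM4, a presynaptic metabotropic receptor, was at 3.07, 5.27, 4.07, 4.55 and 5.60 FPKM in Co-NEC and 7.16, 5.38, 4.90, 5.83 and 7.47 in No NEC pigs, giving a log2 fold change of -0.42. SV2B, a synaptic vesicle protein, averaged 54.2 ± 8.87 and 41.0 ± 11.8 FPKM. Its log2 fold change was 0.43 (95% interval -0.0046 to 0.86), or 0.32 without pig 230-15. Of 15 immediate early genes, which are switched on by neuronal activity, 5 were higher with a median of -0.11, and JUNB had a log2 fold change of -0.25 ± 0.14 (SE).

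Glial lists lay close to the whole table. Of 11 astrocyte genes 5 had higher means with a median of -0.02, and of 9 genes of oligodendrocyte precursors 5 were higher with a median of 0.03. The astrocyte median was 0.09 without No NEC pig 253-15, and the precursor median -0.03 without No NEC pig 540-14. Without pig 230-15 the 2 medians were -0.01 and 0.10. Of 12 genes of mature oligodendrocytes and myelin 7 were higher with a median of 0.07, which was 0.13 with 10 members higher without pig 230-15 and -0.08 without Co-NEC pig 552-14. Within the pigs whose numbers end in 14, the myelin median was 0.46, and within those ending in 15 it was -0.22. TF, or transferrin, carries iron and is made by oligodendrocytes in the brain. It was at 11.2, 20.1, 27.6, 30.2 and 18.7 FPKM in Co-NEC and 9.75, 12.9, 26.4, 5.91 and 9.96 in No NEC pigs. All but 1 Co-NEC pig exceeded 4 of the No NEC pigs, but pig 230-15 lay within their range, and the log2 fold change was 0.80 (95% interval -0.01 to 1.61), or 1.09 without pig 230-15. Among the 18 genes of iron and heme handling, TF included, 10 were higher with a median of 0.02. It was -0.05 without No NEC pig 253-15 and 0.03 without pig 230-15.

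The endothelial and mural lists had lower means in most members, with and without pig 230-15. Of 10 endothelial genes 4 were higher with a median of -0.13, which was -0.15 without that pig, and of 11 mural cell genes 2 were higher with a median of -0.11 and -0.14. TIE1, an endothelial receptor, had a log2 fold change of -0.33 ± 0.16 (SE), and TAGLN, an actin-binding protein of smooth muscle, -0.46 ± 0.25, or -0.26 without Co-NEC pig 552-14. Of 13 genes of meningeal and perivascular fibroblasts 6 were higher with a median of -0.07, or 2 and -0.20 without pig 230-15, and the median was 0.15 without No NEC pig 228-15. None of these genes had an unadjusted p under 0.05.

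Genes of tissue next to the hippocampus and of blood varied widely between pigs. TTR, or transthyretin, the main secreted product of the choroid plexus, was listed at 13.1, 4.70, 4.13, 0 and 12.3 FPKM in Co-NEC and 4.73, 23.0, 23.4, 8.73 and 15.97 in No NEC pigs. By qPCR in more pigs, the study reported TTR as higher in Co-NEC, the opposite direction. Of the 9 choroid plexus genes 7 were higher and 2 lower, TTR among the latter, with a median of 0.14 for the list. Of 6 ependymal genes 5 were higher, and FOXJ1, the factor of motile cilia, averaged 8.995 ± 1.94 and 7.31 ± 2.09 FPKM. HBB, the beta chain of hemoglobin, was at 322, 180, 83.2, 233 and 71.6 FPKM in Co-NEC and 83.1, 128, 82.3, 272 and 1281 in No NEC pigs. Its log2 fold change was -0.38 (95% interval -2.01 to 1.24), and without No NEC pig 550-14, the highest, it was 0.29. HBM was listed at 4.56, 0, 0, 2.44 and 0 FPKM in Co-NEC and 1.95, 2.11, 3.23, 0.819 and 9.28 in No NEC pigs. Of the 7 erythroid genes 2 were higher, with a median of -0.23, or 0.06 without pig 550-14 and -0.22 without pig 230-15.

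Among the genes in the study's table for this comparison, 8 were found by symbol and tested, with a median log2 fold change of -0.43, and of -0.15 without pig 230-15. The study chose them on these samples, so they are not independent evidence of direction. TF and A2M, a protease inhibitor, had higher means, and A2M was at 19.6, 1.72, 2.66, 2.73 and 2.38 FPKM in Co-NEC and 2.63, 1.76, 1.81, 1.30 and 1.13 in No NEC pigs, with a log2 difference of 0.95 that was 0.39 without Co-NEC pig 225-15. The 6 with lower means were HBB, GSTM3, S100A1, CZIB, DRAP1 and MATK. S100A1, a calcium-binding protein, was at 1388, 1296, 1368, 1249 and 1287 FPKM in Co-NEC and 1215, 1212, 4924, 1408 and 1967 in No NEC pigs, and its log2 fold change of -0.47 was -0.11 without pig 230-15. The same held for DRAP1, a transcriptional corepressor, with -0.41 and -0.09, for MATK, a kinase that inhibits Src family members, with -0.46 and -0.18, and for CZIB, a zinc-binding protein, with -0.52 and -0.23. GSTM3, a glutathione transferase of a family with near-identical copies between which reads may be split, was at 8.90, 24.5, 23.9, 24.2 and 10.9 FPKM in Co-NEC and 38.9, 7.55, 70.1, 40.6 and 25.9 in No NEC pigs. Its log2 fold change was -0.78 (95% interval -1.95 to 0.39), and -0.47 without pig 230-15. Among genes with qPCR data, which were not analysed here, 18 were tested, 7 were higher and the median was -0.07. By qPCR in more pigs, the study reported TF, TTR and IL6 as higher in Co-NEC pigs. TF also had a higher mean here, but TTR had a lower one. In S100 proteins, 1 of 5 was higher with a median of -0.23, or -0.11 without pig 230-15.

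No entry showed a difference between the sexes in the effect of Co-NEC at an adjusted p under 0.2 (limma interaction, smallest adjusted p = 0.267), with 336 of 13590 entries at an unadjusted p under 0.05. Over all entries the median log2 fold change was 0.05 between female and -0.02 between male pigs. The lists of ribosomal proteins and of nuclear respiratory complexes had medians of 0.04 and 0.08 between the 2 female pigs of each group and of -0.37 and -0.36 between the 3 male pigs of each group, which include pig 230-15. The heat shock list had a median of 0.16 in both sexes and of 0.16 and 0.12 within the pig numbers ending in 14 and in 15. Against the Si-NEC pigs, a comparison that uses the same Co-NEC pigs, 2 entries passed an adjusted p under 0.2 (0.0147% of those tested, limma), of which COX1 was 1.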

How the data were processed

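Per the labels and the study's methods, RNA of the left hippocampus was sequenced, and the authors aligned reads with TopHat2 2.1.1 and estimated levels with Cufflinks 2.2.1 on Sscrofa10.2. They deposited 1 FPKM value per entry and pig, without counts, so depth and counting error are unknown; low values gave no common step from which reads could be recovered. Of 24594 entries, 1779 identical in every value to another were dropped, and the 13590 averaging 0.5 FPKM or more across 16 samples were fitted on log2(FPKM + 0.5) for 5 Co-NEC against 5 No NEC pigs with limma 3.58.1 in R 4.3.3 (eBayes with trend, no covariate, Benjamini-Hochberg adjustment, threshold 0.2). A reference table that pairs gene IDs with symbols named 66.7% of the tested entries. Several usual markers (MBP, AIF1, CLDN5, COL1A1, S100A9, CD3E) were not analysed by name, and some results are not reported here. The script was tested on simulated data.

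The members, the lists and the naming rule were chosen with earlier results of these data known. Named were entries with an adjusted p under 0.2, up to 12 non-overlapping genes in each direction with a symbol, a single entry and a mean of at least 1 FPKM, up to 3 members of each list with the smallest p, the study's genes for this comparison, and cell type markers. Separate pigs are the replicates, and which of them were littermates is unknown. Summaries used Python 3.11.15 with pandas 2.3.3 and numpy 2.4.6. Alternatives changed the pseudocount, filter, scaling, covariates, variance estimate, weights and pigs. The quintiles of expression and the values within each sex and pig number suffix were added after seeing the data.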

Additional observations from a re-analysis of the deposited data

Results flagged for a closer look

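In the groups of 5 pigs, the highest or lowest pig was set apart when its gap to the next exceeded 0.71 of the group's range (Dixon's test at 95%), which chance gives in about 1 of 20 groups. Many of the genes named above were chosen from these same data, and all were measured in the same pigs, so that rate is no yardstick for them. Among 132 tests of these genes, a pig was set apart 24 times, and 13 times it was No NEC pig 230-15. In that pig RPLP2 was at 1181 FPKM, NDUFB7 at 920, ND3 at 42987, S100A1 at 4924, DRAP1 at 469, CZIB at 140.03, MATK at 65.0, TYROBP at 61.1, CORT at 30.6, AKR7A2 at 29.2, CFD at 14.6, SIGIRR at 7.59 and NRIP2 at 5.36 FPKM. Each of these 13 was the highest of its group, and the next pig was, for example, at 541 FPKM for RPLP2 and 3.47 for SIGIRR.

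No NEC pig 228-15 was the highest of its group for 2 chaperones, HSPA8 at 133 and HSPH1 at 120.3 FPKM. No NEC pig 550-14 was the highest for both globin genes, HBB at 1281 and HBM at 9.28 FPKM, and No NEC pig 540-14 for TMEM158 at 98.9 and ZRANB1 at 13.9 FPKM. VIP was highest by such a gap in No NEC pig 253-15, at 44.1 FPKM, and in Co-NEC pig 231-15, at 24.5 FPKM.

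In the Co-NEC group, pig 225-15 was the highest for A2M, at 19.6 FPKM against 2.73 in the next pig, and the lowest for C3, at 3.93 FPKM against 5.99. Pig 545-14 was the highest for TAF3, at 7.49 FPKM.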

How the results depend on the processing

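No paired analysis was made, because the groups held separate pigs and the labels give no pairs between them. The study's pigs came from several sows, and its models of other outcomes were adjusted for litter. Litter is not among the labels used here, so the p-values and intervals take no account of littermates. There were 22 alternatives, 12 settings and 10 fits without 1 pig. The only called gene, COX1, was not lost, but its values of 0 in all No NEC pigs fixed that outcome in advance. The 66 named genes gave 1451 values of which 3 changed sign. The entries with an adjusted p under 0.2 (limma) numbered 4 without a filter and 1 to 2 without single pigs. Those with an unadjusted p under 0.05 and higher levels were 845 with array weights and 134 (without Co-NEC pig 552-14) to 557 (without No NEC pig 228-15) without single pigs. Those with lower levels were 271 without a filter, 276 after rescaling, 472 with array weights, and 112 (without 225-15 or 552-14) to 461 (without 228-15). Entries without overlap numbered 47 to 201 (higher) and 45 to 227 (lower) without single pigs, with both maxima without Co-NEC pig 255-15, and 50 lower after rescaling. Groups of 4 pigs overlap less often by construction, and other causes were not tested. The sex interaction gave 0 to 11 entries, most without No NEC pig 253-15.

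Without single pigs, the log2 fold change of HBB ran from -0.70 to 0.29 and of GFAP from -0.052 to 0.047 (0.01 without Co-NEC pig 231-15). Of 851 list medians, 5 moved by more than the spread between pigs. Unknown depth and 66.7% naming limit the rest.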
